A study of Mus musculus with 6 samples.

Results

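Lymphatic endothelial cells line the vessels that drain tissue fluid, and they are told from blood endothelium by a small set of genes. The transcription factor Prox1 starts and holds the lymphatic programme in cells that leave embryonic veins, and it acts with the nuclear receptor Nr2f2 and the factor Sox18. Growth of the new vessels is driven by the ligand Vegfc through its receptor Flt4. Surface and secreted proteins such as Lyve1, Pdpn, Reln and Ccl21a serve as markers of lymphatic endothelial cells. The 10 marker genes described here are Prox1, Lyve1, Pdpn, Reln, Ccl21a, Mmrn1, Foxc2, Stab2, Fgl2 and Cp. They were taken as the array probes whose accession carries 1 of these symbols, and 10 of 10 were found among 20018 genes with a symbol.

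Gene expression was measured on 6 one-colour Agilent arrays carrying RNA of endothelial cells sorted from mouse skin. The wild-type group had 3 samples and the APJ knockout group 3 samples, all of strain C57Bl/6J and each labelled with the number of a mouse. APJ, the G-protein-coupled receptor for the peptide apelin, is encoded by Aplnr, and the comparison asks which genes of these cells differ when it is lacking. The labels do not state the sex of the animals, the kind of knockout allele, or the surface markers of the sort. The names of the deposited files point to an embryonic stage, which no label states.

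A log2 level is the log2 of a probe's processed intensity less the 75th percentile of its array, so that 0 is the level of that percentile. A difference is the mean level of the knockout arrays minus that of the wild-type arrays, with the standard error (SE) of limma, a linear model fitted to 24260 genes and unnamed probes. Its p-values were adjusted by the Benjamini-Hochberg method over all of them, and a gene passed when the adjusted p was below 0.05. Levels of different probes are not comparable, because probes differ in how well they bind.

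Across the arrays the 75th percentile of intensity ran from 251.8 to 399.7, and 20 of 20 pan-endothelial markers were well above background on all 6 arrays. Aplnr read 3.35, 3.77 and 3.82 in wild type and 1.89, 1.71 and 2.26 in the knockout, a difference of -1.69 ± 0.19 (SE, limma adjusted p = 0.0237). Its knockout arrays were all below its wild-type arrays. With the replicate number as a block the adjusted p was 0.0791, and whether its probe lies in the deleted part of the gene is not known here. There were 2 slides, each with a scan of its own. Slide 1 held replicates 1 and 2 of both genotypes, and slide 2 held replicate 3 of both. Wild type replicate 3 stood apart in epidermal transcripts: the summed signal of 10 keratinocyte markers, in units of the array's 75th percentile, was 35.3 there and between 10.3 and 16.7 on the other 5 arrays.

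All 10 marker genes had a higher mean in APJ knockout cells, by a median of 0.58 on the log2 scale, but none passed the test across the transcriptome. Prox1, Stab2, Fgl2, Lyve1, Pdpn, Mmrn1 and Foxc2 were higher on every knockout array than on any wild-type array. Ccl21a stood apart, with a difference of 0.08 against 0.41 to 0.88 for the other 9 genes. Over all features tested the median difference was -0.02. In whole sorted populations, more cells of a type and more RNA per cell cannot be told apart.

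A mean above that of wild type, seen in 10 of 10 genes, was found in 43.6% of all features. A difference of at least 0.4 was seen in 9 of 10 genes and in 4.31% of features. Both counts include Cp, a dim gene tested only because its knockout arrays were well above background. With normexp correction of the background the difference of Cp was 0.02. In counts, 0 of 10 genes passed (limma adjusted p from 0.128 to 1), where 0.552% of all features did in either direction. At an unadjusted p below 0.05, 8 of 10 were higher in the knockout, against 4.45% of all features. The 7 genes whose arrays did not overlap compare with 6.37% of features in which all knockout arrays lay above all wild-type arrays. Exact permutation of 3 arrays against 3 cannot give a p below 0.1, and it gave 0.1 (two-sided) for those 7 genes. With the slide as a block 2 of 10 passed, Stab2 and Pdpn, against 0.758% of features that passed with a higher knockout. With the replicate number as a block 0 of 10 passed, and 0.0206% of features did. The members were chosen with results of these data known, so these shares describe the list and do not test it.

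**Figure D1:**
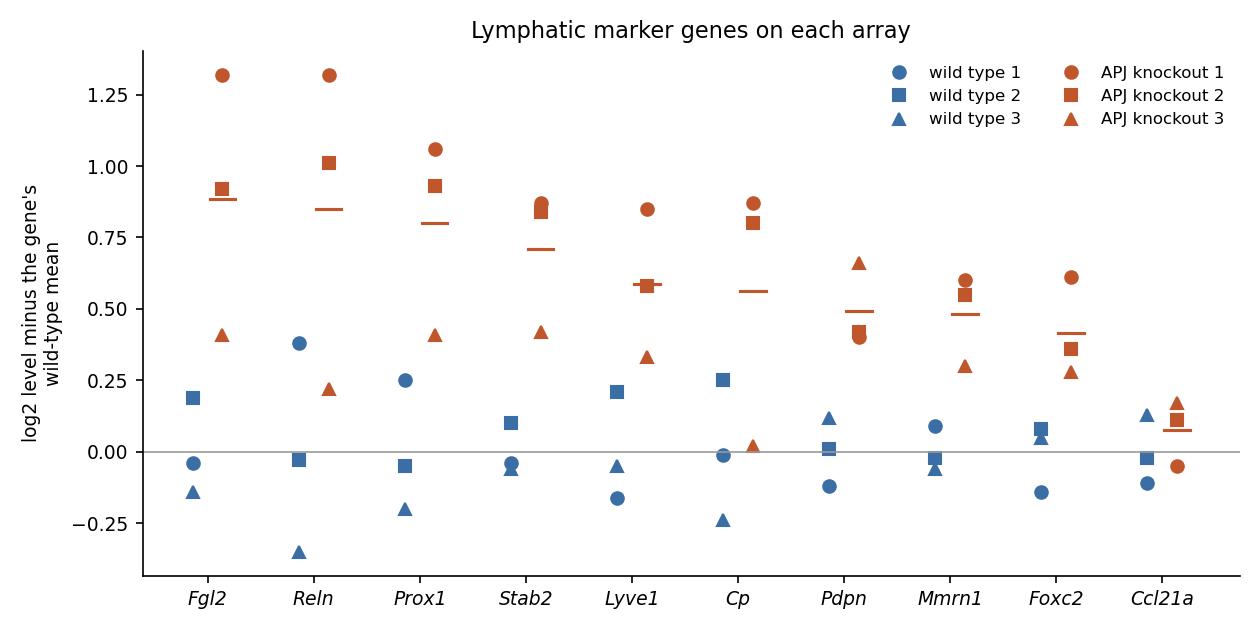
Log2 level of each marker gene on each array, less that gene's mean over the 3 wild-type arrays. Points are arrays, with shape for the replicate number and colour for the genotype, and a bar marks the knockout mean. The knockout points lie above the wild-type points in 7 of the 10 genes, APJ knockout replicate 3 is the lowest knockout array in 8, and the Ccl21a points overlap.

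Promoters are shown for 3 genes: Stab2 and Pdpn, which passed when the slide was a block, and Ccl21a, which differed least. Each is the 250 bases before the gene's annotated start, 5′ to 3′ on the gene's strand, from RefSeq on GRCm38.p6. The capitals mark AGGTCA, the hexamer bound by nuclear receptors of the Nr2f2 family, searched on both strands. Stab2 lies at chr10:87007943-87008192, Pdpn at chr4:143299565-143299814 and Ccl21a at chr4:42773992-42774241, all on the minus strand.

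Stab2: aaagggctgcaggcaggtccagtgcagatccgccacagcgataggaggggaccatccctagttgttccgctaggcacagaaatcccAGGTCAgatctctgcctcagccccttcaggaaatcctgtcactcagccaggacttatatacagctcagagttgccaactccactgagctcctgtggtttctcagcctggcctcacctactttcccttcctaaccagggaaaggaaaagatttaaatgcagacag

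Pdpn: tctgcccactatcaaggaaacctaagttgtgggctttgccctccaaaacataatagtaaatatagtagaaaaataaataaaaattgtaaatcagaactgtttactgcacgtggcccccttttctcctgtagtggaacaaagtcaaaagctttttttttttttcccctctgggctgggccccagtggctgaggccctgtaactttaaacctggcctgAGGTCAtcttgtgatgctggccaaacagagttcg

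Ccl21a: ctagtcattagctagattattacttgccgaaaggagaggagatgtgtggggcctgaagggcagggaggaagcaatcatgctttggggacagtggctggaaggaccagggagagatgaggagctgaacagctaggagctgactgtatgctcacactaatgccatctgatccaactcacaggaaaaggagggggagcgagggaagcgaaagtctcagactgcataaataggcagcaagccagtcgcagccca

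The hexamer began 164 bases before the start in Stab2 and 34 bases before it in Pdpn, and the Ccl21a window holds no match. In the promoter table, 8 of the 10 marker genes had an entry, with 10 starts between them, and Lyve1 and Foxc2 did not. It occurred in 2 of those 10 starts and in 14% of 32817 promoters of the same length. The SOX motif AACAAT occurred in 2 of 10 starts, those of Cp and Mmrn1, and in 9.42% of all promoters. The forkhead motif GTAAACA occurred in Pdpn and in 3.16% of all promoters. The NFAT core GGAAA, common by its short length, occurred in 9 of 10 starts and in 55.6% of all. It is in all 3 promoters shown, Ccl21a included, and is not marked there. The ETS motif CCGGAA occurred in Reln and in 12% of all, and the GATA motif AGATAA in 0 of 10 starts and in 9.99% of all. A match is only a run of letters, and binding was not measured.

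Among the transcription factors, Prox1, the homeobox factor that defines lymphatic identity (chromosome 1, probe accession NM_008937), read -0.68, -0.98 and -1.13 in wild type. In the knockout it read 0.13, -0.00 and -0.52, so its lowest knockout array lay above its highest wild-type array. The means were -0.93 ± 0.23 and -0.13 ± 0.34 (SD, n = 3 each), a difference of 0.80 ± 0.20 (SE) or 1.74-fold. It did not pass (limma adjusted p = 0.236), nor with the slide as a block (0.0542) or the replicate number as a block (0.0981). The difference was 0.89 within slide 1 and 0.61 within slide 2.

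Foxc2, a forkhead factor needed for lymphatic valves (chromosome 8, NM_013519), read -1.25, -1.03 and -1.06 in wild type and -0.51, -0.76 and -0.84 in the knockout. The groups did not overlap, and the difference of 0.41 ± 0.12 (SE, n = 3 per group) was the smallest after that of Ccl21a (limma adjusted p = 0.330). With normexp correction of the background it was 0.27. It was 0.51 within slide 1 and 0.23 within slide 2.

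Of the surface proteins, Lyve1, a hyaluronan receptor of lymphatic endothelium and of some macrophages (chromosome 7, NM_053247), read 2.82, 3.19 and 2.93 in wild type and 3.83, 3.57 and 3.32 in the knockout. Each knockout array was above each wild-type array, and the means were 2.98 ± 0.19 and 3.57 ± 0.26 (SD, n = 3 each). The difference was 0.59 ± 0.16 (SE, limma adjusted p = 0.295), or 1.5-fold, with 0.69 within slide 1 and 0.38 within slide 2.

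Stab2, a scavenger receptor that also takes up hyaluronan (chromosome 10, NM_138673), read 0.28, 0.41 and 0.25 in wild type and 1.18, 1.15 and 0.73 in the knockout. The wild-type arrays were close together, at 0.31 ± 0.09, and the knockout arrays at 1.02 ± 0.25 (SD, n = 3 each) all lay above them. The difference of 0.71 ± 0.14 (SE), or 1.63-fold, had the smallest p of the list (limma adjusted p = 0.128). It passed when the slide was a block (limma adjusted p = 0.0480), not when the replicate number was (0.125). It was 0.82 within slide 1 and 0.48 within slide 2.

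Pdpn, the membrane glycoprotein podoplanin that binds the platelet receptor Clec1b (chromosome 4, NM_010329), read 2.44, 2.57 and 2.68 in wild type and 2.96, 2.99 and 3.23 in the knockout. The groups did not overlap, and APJ knockout replicate 3 was the highest array, not the lowest of its group as for most other marker genes. The difference was 0.49 ± 0.11 (SE, n = 3 per group, limma adjusted p = 0.189). When slides were blocked it passed, at 0.0486, and with the replicate block it did not, at 0.0982. It was 0.47 within slide 1 and 0.54 within slide 2. A second probe of the same accession differed by 0.62, also without overlap. Pdpn is also made by epidermal and mesenchymal cells, and without wild type replicate 3, the array with the high keratinocyte signal, its difference was 0.55.

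Of the secreted proteins, Reln, the extracellular glycoprotein reelin of lymphatic collecting vessels (chromosome 5, NM_011261), read -1.69, -2.10 and -2.42 in wild type and -0.75, -1.06 and -1.85 in the knockout. APJ knockout replicate 3 fell between wild-type arrays, so the groups overlapped. The difference was 0.85 ± 0.31 (SE, n = 3 per group, limma adjusted p = 0.523), the most imprecise of the list. With normexp correction of the background it was 0.52. Within slide 1 it was 0.99 and within slide 2 0.57, so in both slides the knockout arrays were above the wild-type arrays.

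Mmrn1, multimerin, a large secreted protein of lymphatic endothelium and platelets (chromosome 6, NM_027613), read 4.52, 4.42 and 4.38 in wild type and 5.03, 4.99 and 4.74 in the knockout. The groups were well separated, at 4.44 ± 0.08 and 4.92 ± 0.16 (SD, n = 3 each), for a difference of 0.48 ± 0.11 (SE, limma adjusted p = 0.184). It was 0.54 within slide 1 and 0.36 within slide 2.

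Fgl2, a fibrinogen-like protein that is also made by macrophages and T cells (chromosome 5, NM_008013), read -0.77, -0.54 and -0.87 in wild type and 0.59, 0.20 and -0.32 in the knockout. Its difference was the largest of the list, 0.88 ± 0.23 (SE, n = 3 per group) or 1.85-fold, with no overlap (limma adjusted p = 0.268). The knockout arrays were spread widely, and the difference was 1.05 within slide 1 and 0.55 within slide 2.

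Cp, the copper-carrying ferroxidase ceruloplasmin (chromosome 3, NM_007752), was measured near background. It read -4.32, -4.06 and -4.55 in wild type, where 2 of 3 arrays were well above background, and -3.44, -3.51 and -4.30 in the knockout. It was tested because all 3 knockout arrays were well above background, a filter that favours a higher knockout, and its groups overlapped. The difference of 0.56 ± 0.25 (SE, n = 3 per group, limma adjusted p = 0.690) became 0.02 when the background was corrected by the normexp method.

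Ccl21a, the chemokine that draws Ccr7-bearing dendritic cells into lymphatics (chromosome 4, NM_011124), read 8.94, 9.04 and 9.19 in wild type and 9.01, 9.17 and 9.22 in the knockout. The groups overlapped, and the difference was 0.08 ± 0.11 (SE, n = 3 per group, limma adjusted p = 1), with a 95% interval from -0.18 to 0.33. The near-identical copy Ccl21b has its own probe, with a wild-type mean of 9.21 ± 0.09 and a knockout mean of 9.27 ± 0.12 (SD, n = 3 each). It differed by 0.06 ± 0.10 (SE, limma adjusted p = 1). Signals of the copies may not be separable, so both values are uncertain as to the gene. The Ccl21a probe reached 35.7% of the scanner's saturation value at most. Of 372 features with a mean level of at least 8, Ccl21a and Ccl21b among them, 0 differed by 0.4 or more in either direction, so no feature of that brightness differed as much as the other marker genes. Whether such bright probes can show a change of that size was not tested.

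**Figure D2:**
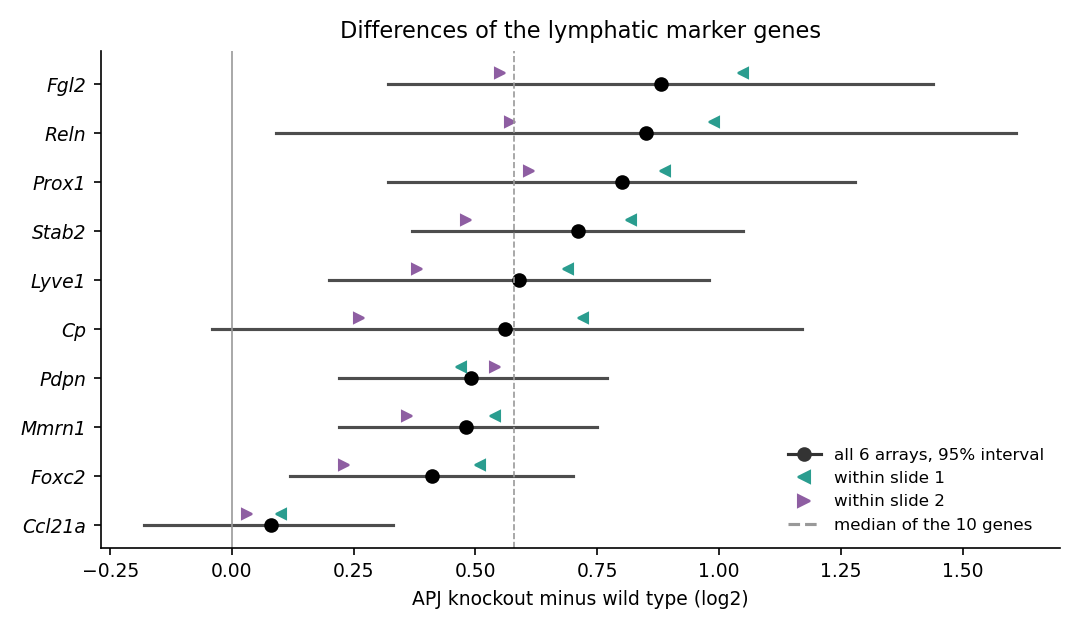
Difference between APJ knockout and wild type (log2) for the 10 marker genes, with the 95% interval of the fit over all 6 arrays and the values within slide 1 and slide 2. The dashed line is the median of the 10 genes, 0.58. The interval holds the median of the other genes for 9 of 10 genes and does not for Ccl21a, and Pdpn alone has its slide 2 value above its slide 1 value.

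Whether the marker genes moved by a common factor was examined from the sizes of their differences. Apart from Ccl21a the ratio of knockout to wild type ran from 1.33 for Foxc2 to 1.85 for Fgl2. The SD of those 9 differences was 0.17, and the median SE of each was 0.16. The genes were read on the same arrays and most deviated together, so their errors are not independent. The SE is therefore not the spread that a common factor would give, and the likeness of these values does not show such a factor. With Ccl21a the SD was 0.24 over 10 genes. For 9 of 10 genes the 95% interval held the median difference of the other genes, and for Ccl21a it did not (upper bound 0.33, median of the others 0.59). An interval that holds a common value does not show that the genes share it.

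Within each array, a gene's level less the mean of the other 9 does not depend on the scaling of the array. On this measure Ccl21a had a wild-type mean of 8.93 ± 0.21 and a knockout mean of 8.36 ± 0.38 (SD, n = 3 each), which differ by -0.57. Its lowest wild-type array, at 8.79, was just above its highest knockout array, at 8.76 (exact permutation p = 0.1, two-sided, the smallest possible). Stab2 was the other gene whose groups did not overlap, at -0.78 ± 0.05 and -0.65 ± 0.06 (SD, n = 3 each), a difference of 0.13 (exact permutation p = 0.1). The mean that Stab2 was set against includes Ccl21a, the gene that differed least, so the 2 separations are not independent. In the pairs below, Stab2 was apart only from Ccl21a and Foxc2. The other 8 genes overlapped, with differences from -0.19 for Foxc2 to 0.33 for Fgl2 and exact permutation p from 0.2 to 1. Under quantile normalization 1 gene was apart in place of 2, and 7 were without APJ knockout replicate 3. Leaving out wild type replicate 1 gave 4, as did leaving out replicate 2 of that group. Leaving out an array can only keep or raise this count, so the rise is not a result about the genes.

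Taken in pairs, the level of a gene less that of another separated the genotypes in 4 of the 9 pairs with Ccl21a and in 3 of the 36 pairs without it. For any pair, a share of 0.1 of the splits of the arrays into 3 and 3 leaves the groups apart in either direction. Some pairs would thus be apart without any inequality, and pairs share genes and arrays, so the counts are description with no test. The pairs with Ccl21a were those with Pdpn, Foxc2, Stab2 and Fgl2. The others were Foxc2 with Stab2, Foxc2 with Fgl2, and Fgl2 with Cp. Ccl21a and Fgl2 were the most unequal of these, their difference changing by -0.81 between the genotypes.

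**Figure D3:**
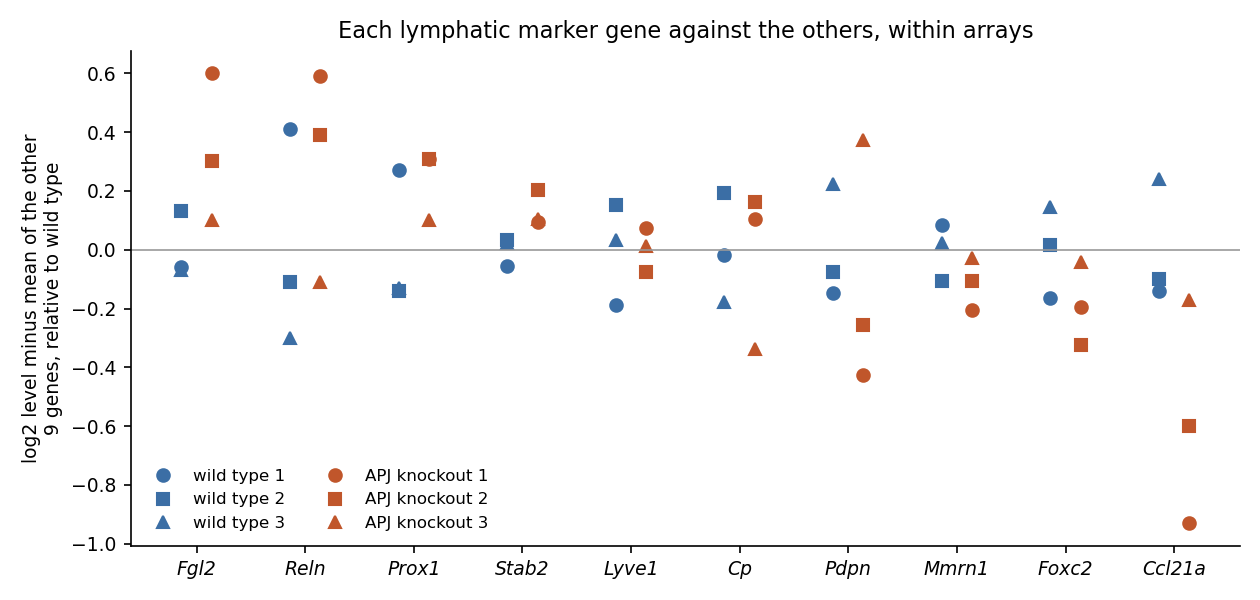
Level of each marker gene less the mean of the other 9 on the same array (log2), set to 0 at its wild-type mean. Points are arrays, with shape for the replicate number and colour for the genotype. Ccl21a is lower in the knockout by 0.57 and Stab2 higher by 0.13, while the points of the other 8 genes overlap. For every gene but Ccl21a the mean of the other 9 includes Ccl21a.

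The size of the difference was not the same on all knockout arrays. Relative to the wild-type mean of each gene, the median over the 10 genes was 0.86 on APJ knockout replicate 1, 0.69 on replicate 2 and 0.32 on replicate 3. On the wild-type arrays it was -0.04, 0.04 and -0.06. APJ knockout replicate 3 was the lowest knockout array in 8 genes and the highest in Pdpn and Ccl21a. The median difference was 0.71 within slide 1 and 0.43 within slide 2. In both slides 10 of 10 genes were above 0, against 27.9% of all features, with Cp, tested only through the knockout arrays, among them. Without APJ knockout replicate 3 the median over the genes was 0.78, and without replicate 1 it was 0.50.

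Deviations from the group means described which genes vary together among arrays of the same genotype. Over the 6 arrays, the deviation of a gene correlated with the mean deviation of the other 9 at 0.97 for Fgl2, 0.96 for Stab2, 0.95 for Cp and 0.88 for Mmrn1. For Lyve1 it was 0.81, for Prox1 and Reln 0.80, and for Foxc2 0.62. It was negative for Pdpn (-0.85) and Ccl21a (-0.74). Prox1 and Reln were nearly parallel, at 0.99, while Prox1 and Pdpn ran opposite, at -0.99. These points share arrays and slides, and they are given as description with no test.

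By likeness of pattern, the 8 genes nearest to the mean profile of the marker genes over the 6 arrays were Cyp4f16, Spop, Ak4, Fam209, Zfp287, Nid1, Cdkl1 and Dab2, with Pearson r from 0.9868 to 0.9962 among 13003 candidates. Of these Ak4, an adenylate kinase of mitochondria, differed most, by 0.82 ± 0.20, then Dab2, an adaptor for endocytosis, by 0.53 ± 0.14. Nid1, a basement membrane protein, differed by 0.38 ± 0.10 (SE, n = 3 per group for each), and none of the 8 passed (limma adjusted p from 0.206 to 1). The marker genes themselves correlated with the mean of the other markers at 0.62 (Pdpn) to 0.99 (Stab2), except Ccl21a at 0.01. Across so few arrays, 95 candidates reached an r of 0.95.

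A broad list of other genes of lymphatic growth and development had a median near 0. It also holds pan-endothelial genes such as Kdr, Tek and Tie1, so its median is not that of lymphatic genes alone. Of 48 listed genes 46 were tested, and 0 passed in either direction, against 0.552% of all features. At an unadjusted limma p below 0.05 there were 11, against 8.01% of all features. The median difference was 0.05, with 28 above 0, against 43.6% of all features, and 18 below. In 12 of them the knockout arrays all lay above the wild-type arrays, against 6.37% of all features, and in 5 all below, against 5.86%. Of the 46 genes, 3 were tested only because the knockout arrays were well above background, a filter that favours a higher knockout. These 3, with Vegfd and Ccbe1 among them, were all counted above 0, and Vegfd was also among the 12.

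Among ligands, Vegfc read 3.16, 3.00 and 2.65 in wild type and 3.21, 3.15 and 2.62 in the knockout, a difference of 0.06 ± 0.20 with overlapping groups. Vegfd, the other ligand of Flt4, was near background, with 1 of 3 wild-type arrays and 3 of 3 knockout arrays well above it, and its difference was 0.59 ± 0.19 (limma adjusted p = 0.429). Ccbe1, which helps to process Vegfc, differed by 0.39 ± 0.34 and overlapped (SE, n = 3 per group for each). With normexp correction Vegfd differed by 0.05 and Ccbe1 by -0.01.

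The receptor Flt4 read 0.47, 0.49 and 0.50 in wild type and 0.83, 0.87 and 0.91 in the knockout. Its groups were apart with little spread, for a difference of 0.38 ± 0.08 (SE, limma adjusted p = 0.134). With slides blocked the adjusted p was 0.0627. It was 0.37 within slide 1 and 0.41 within slide 2. The co-receptor Nrp2 differed by 0.15 ± 0.09, from 6.55, 6.63 and 6.55 to 6.66, 6.81 and 6.72, also without overlap (limma adjusted p = 0.854).

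The factors that act with Prox1 showed no such separation. Sox18 differed by -0.08 ± 0.16, Nr2f2 by -0.10 ± 0.10 and Gata2, a factor of lymphatic valves, by -0.01 ± 0.32 (SE, n = 3 per group), each with overlapping groups (limma adjusted p = 1 for each).

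Adm, Angpt2, Ackr2, Ephb4 and Thy1 were among the genes of this list with the smallest p, each higher on every knockout array than on any wild-type array. Adm, the peptide adrenomedullin, read 1.35, 1.63 and 1.27 in wild type and 2.75, 2.63 and 2.22 in the knockout. Its difference was 1.12 ± 0.17 (SE, n = 3 per group, limma adjusted p = 0.0586). It passed with slides blocked (0.0232) and not with the replicate block (0.0920). Ackr2, a chemokine-scavenging receptor of lymphatic endothelium, read -1.59, -1.79 and -1.94 in wild type and -0.46, -0.83 and -1.05 in the knockout. Its difference was 1.00 ± 0.17 (limma adjusted p = 0.0893), and it too passed with slides blocked (0.0374) and not with the replicate block (0.0741). These were the 2 genes of the list that passed with the slide as a block, where 1.17% of all features did.

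Angpt2, a ligand of the receptor Tek, differed by 0.87 ± 0.14 (limma adjusted p = 0.0683) and was 1.02 within slide 1 and 0.58 within slide 2. Ephb4, a receptor of venous and lymphatic endothelium, differed by 0.47 ± 0.09, and Thy1, a surface glycoprotein of lymphatic endothelium, by 0.42 ± 0.11 (SE, n = 3 per group).

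Podoplanin on lymphatic cells meets Clec1b on platelets, which keeps blood and lymph apart. Clec1b read -0.11, -0.22 and -0.03 in wild type and 0.49, 0.50 and 0.76 in the knockout, a difference of 0.70 ± 0.11 without overlap (SE, n = 3 per group, limma adjusted p = 0.0699). With slides blocked it passed, at 0.0241, and with the replicate block it did not, at 0.0864. Of 8 tested genes of this platelet pathway 6 were above 0, against 43.6% of all features, with a median of 0.26. By limma 0 passed, and 3 had an unadjusted p below 0.05, against 8.01% of all features. Ppbp, a platelet chemokine, differed by 0.76 ± 0.19, Pf4, another, by 0.48 ± 0.14, and the platelet integrin gene Itga2b by 0.29 ± 0.14.

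**Figure D4:**
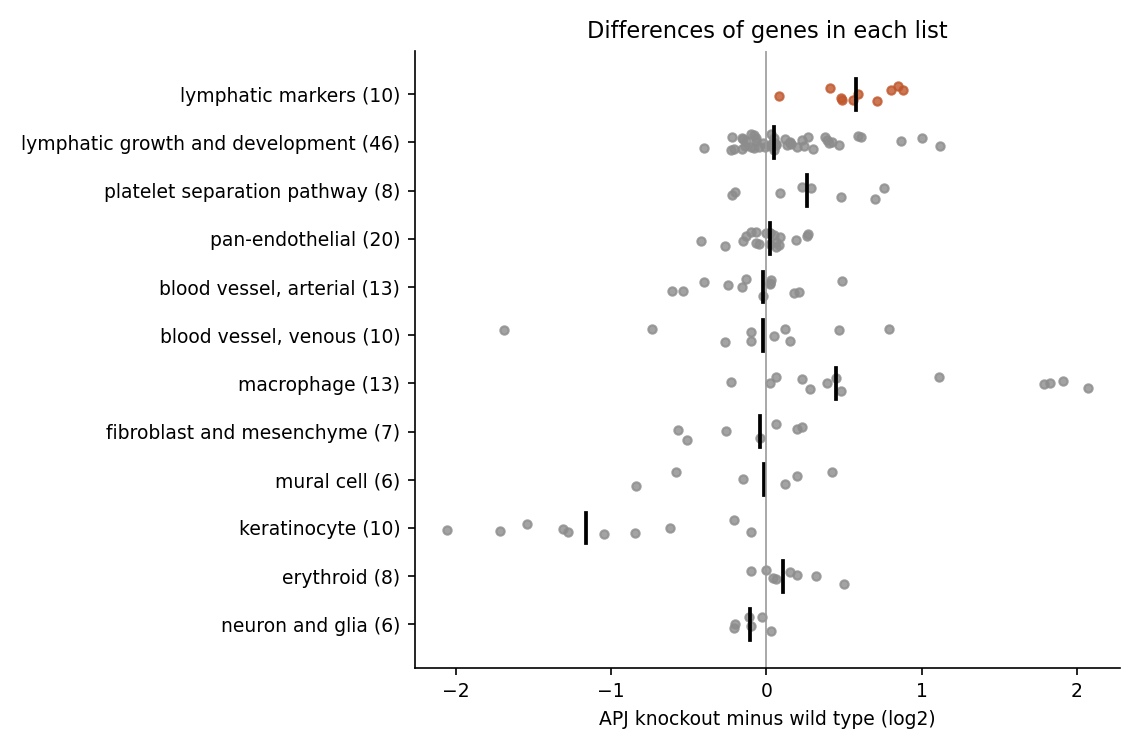
Difference between APJ knockout and wild type (log2) of each tested gene, by list, with the number of genes in brackets and a bar at the median. The lymphatic markers lie from 0.08 to 0.88, the pan-endothelial genes from -0.42 to 0.27 around a median of 0.02, and macrophage and keratinocyte genes are spread more widely.

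Endothelial lists without the 10 lymphatic markers had medians near 0. They share some genes with the lymphatic growth list, such as Nr2f2, Nrp2 and Ephb4. The 20 pan-endothelial genes had a median of 0.02, with 11 above 0, and 0 passed (3 at an unadjusted limma p below 0.05). Of all features, 43.6% were above 0, 0.552% passed and 8.01% had an unadjusted limma p below 0.05. These shares also stand beside the arterial counts. Sox7 differed by -0.42 ± 0.09, Flt1 by 0.26 ± 0.08, Eng by 0.27 ± 0.11 and Vwf by -0.27 ± 0.13 (SE, n = 3 per group). The 13 arterial genes had a median of -0.02 and 0 passed (3 at an unadjusted limma p below 0.05), with Cxcr4 at 0.49 ± 0.17, Cxcl12 at -0.61 ± 0.21, Gja4 at -0.40 ± 0.16 and Unc5b at 0.18 ± 0.08. The 10 genes listed as venous had a median of -0.02, and apart from Aplnr, the targeted gene, none passed. With Aplnr counted, 4 of them had an unadjusted limma p below 0.05, against 8.01% of all features. Nts differed by 0.79 ± 0.13, Ephb4 by 0.47 ± 0.09 and Ackr1 by -0.74 ± 0.18. Cxcl12 passed with slides blocked (limma adjusted p = 0.0323) and not with the replicate block (0.0951).

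Most macrophage genes also had a higher mean in the knockout. Of 13 tested macrophage genes 12 were above 0, against 43.6% of all features, with a median of 0.45. By limma 0 passed, and 7 had an unadjusted p below 0.05, against 8.01% of all features. Of the 13 genes, 4 were tested only because the knockout arrays were well above background. Leaving out wild type replicate 2 gave a median of 0.26, and leaving out replicate 3 of that group gave 0.93. Their summed signal, in units of the array's 75th percentile, was 51.0 to 62.7 in wild type and 56.8 to 62.2 in the knockout. Itgam and Csf1r, with differences of 0.02 and -0.23, made up 63.6% to 85% of that sum. Without this pair, set aside after their values were seen, it was 8.56, 8.55 and 20.3 in wild type and 12.4, 10.8 and 22.6 in the knockout. Fcgr1 and Cd163 were on the array and not tested, being too dim.

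Lyz2 read -5.27, -5.54 and -4.57 in wild type and -2.92, -3.71 and -3.25 in the knockout, a difference of 1.83 ± 0.30 (SE, n = 3 per group). C1qa differed by 1.79 ± 0.35, C1qc by 1.91 ± 0.45 and Aif1 by 1.11 ± 0.29. Lyz2, C1qa, C1qc and Adgre1 are the 4 genes tested only through the knockout, with 1 or 2 of 3 wild-type arrays well above background. With normexp correction the differences were 0.39 for Lyz2, 0.52 for C1qa, 0.62 for C1qc and 0.71 for Aif1. C1qa passed with the replicate block (limma adjusted p = 0.0432) and not with slides blocked (0.0797), while Aif1 passed with slides blocked (0.0242) and not with the replicate block (0.0951).

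Among the knockout arrays, replicate 3 was the highest for 8 of the 13 macrophage genes and the lowest for 3 (Mrc1, Csf1r and Itgam). It was the lowest for 8 of the 10 lymphatic markers. Replicate 3 of both genotypes was on slide 2, so these ranks also carry any difference between the slides. The macrophage median difference was 0.46 within slide 1 and 0.26 within slide 2. For the lymphatic markers these medians were 0.71 and 0.43. The part of macrophage RNA in the lymphatic marker values was not tested.

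Other cell types were measured the same way. The 10 keratinocyte genes had a median of -1.17 with 10 of 10 below 0, against 13691 of all 24260 features. By limma 0 passed, against 0.552% of all features. At an unadjusted limma p below 0.05 there was 1, against 8.01% of all features. Krt5 differed by -1.72 ± 1.23, Krt14 by -1.31 ± 0.70, Krt10 by -1.05 ± 0.58 and Sfn by -0.85 ± 0.23 (SE, n = 3 per group). Without wild type replicate 3 the keratinocyte median was -0.36, and the lymphatic marker median was 0.56.

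Fibroblast genes had a median of -0.04 over 7 genes, with Twist2 at -0.51, Dcn at -0.57, Pdgfra at 0.23 and Col1a1 at -0.26. Mural genes had a median of -0.01 over 6, with Abcc9 at 0.42, Notch3 at -0.84, Pdgfrb at -0.58 and Cspg4 at 0.20. Erythroid genes had a median of 0.11 over 8, with Hba-x at 0.50, Slc4a1 at 0.32, Hbb-y at 0.20 and Ermap at -0.10. Neural genes had a median of -0.10 over 6, with Sox10 at -0.11, Tubb3 at -0.20 and Ngfr at -0.10. No gene of these 4 lists passed by limma, against 0.552% of all features. An unadjusted limma p below 0.05 was seen in 2 of the 6 mural genes, against 8.01% of all features.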

How the data were processed

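Per the file headers, the deposited scanner files hold linear Cy3 intensity per spot, background-subtracted and detrended by Agilent Feature Extraction 10.7.3.1 and not normalized between arrays, on an array design of build mm9. In the value table that the authors deposited, each intensity is multiplied by a constant of its array, from 2.285 to 3.685. Its column medians ran from 60.30 to 66.98. The scale is linear, genes were not centred, and the origin of the constants stays unknown. The spot flags (well above background, saturated, outlier) in the deposited files take other values, 0 or 1. No spot was saturated, and 126 to 179 outlier spots per array were left out.

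Log2 intensity less the array's 75th percentile over 59305 spots that are not controls was averaged over the spots of a probe. Probes well above background on all arrays of a group entered the fit, a gene by its probe of highest mean signal. Symbols came from RefSeq accessions without version, which named 47.4% of 55681 probes. The table follows another assembly than the array, so only chromosome numbers are taken from it. The fit used limma 3.58.1 in R 4.3.3 with genotype as the only term, and it was tested on simulated data. P-values reflect only how these samples vary, and precision is limited by having 6 arrays.

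Arrays with the same replicate number deviated together from their group means, with correlations of 0.23, 0.15 and 0.65 over 24231 features for replicates 1, 2 and 3. Arrays of slide 1 with different numbers correlated at 0.36 and 0.28, above its same-number pairs, and arrays of different slides at -0.47 to -0.35. These values show that arrays of a slide deviate together and do not tell a pairing by number within slide 1. Fits with a slide block and with a replicate block are both given as alternatives. Further alternatives were the scaling, background correction (on median pixel signals, the deposited files used here having no mean signal column), value table, filter, probe rule and each array left out.

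The named genes are Aplnr, the 10 markers, 8 lymphatic growth genes chosen by name and the 6 others with the smallest p, up to 4 of each other list by p, and the 8 genes most like the markers' mean profile. Some genes that the rule names are not reported here. The markers and lists were chosen with earlier results of these data known.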

Additional observations from a re-analysis of the deposited data

How the results depend on the processing

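All 10 marker genes kept a difference above 0 in each of the 169 values from 17 alternatives. No marker gene passed under any alternative except Stab2 and Pdpn with the slide as a block, when 2 passed. The median over the marker genes was 0.52 to 0.59 under other scalings, filters and probe rules, and 0.50 to 0.78 with 1 array left out. The count of genes with knockout arrays all above wild-type arrays, a measure added after seeing the data, was 7 of 10, 6 with normexp and 7 to 9 with 1 array left out. The number of genes apart from the other 9 within arrays was 1 with quantile normalization, 2 to 7 with 1 array left out and 7 within slide 1. For slide 2 alone, with 1 array per genotype, it has no meaning and was not counted. Both counts can only stay or rise when arrays are left out, so their higher values with fewer arrays are not results about the genes. The difference of Aplnr stayed between -1.57 and -1.84 but lost its call without a filter on dim probes (-1.69, adjusted p = 0.186), with the replicate block (-1.69, 0.0791), within slide 1 (-1.76, 0.0862) and in 5 of the 6 fits with 1 array left out, the exception being that without APJ knockout replicate 3. Features called were 134, against 3 without a filter, 285 with the slide as a block, 5 with the replicate block and 16 to 61 with 1 array left out. The replicate block changed no call of a marker gene, and of the other named genes it changed those of Aplnr and C1qa. Lymphatic growth genes called were 0, and 2 with the slide as a block or with normexp. Normexp, with an offset of 50 added, brings the differences of dim probes towards 0: Cp came to 0.02, Ppbp to 0.46, Ackr1 to -0.41, Krt14 to -0.83, Sfn to -0.49, Dcn to -0.33, Twist2 to -0.19 and Pdgfrb to -0.22. Cp has no value when probes must be well above background on all 6 arrays. Dim probes such as those of Cp and Vegfd are limited by their closeness to background.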
